A study of Mus musculus with 33 samples.

Results

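The p53 peaks at 4 genes of DNA repair and nucleotide supply, Xpc, Ddb2, Polk and Rrm2b, were followed through 26 peak lists of mouse lymphomas. A peak was a member when it overlapped a fixed window of the mouse build mm9 around one of the genes. The windows were chr6:91410000-91490000 for Xpc, chr2:91020000-91100000 for Ddb2, chr13:97220000-97340000 for Polk and chr15:37830000-37915000 for Rrm2b. They held 71 of the 102916 peaks, and joining peaks that shared at least 1 bp gave 11 of the 18927 regions of the series. Xpc had 35 peaks in 4 regions, Ddb2 13 peaks in 4 regions, Polk 10 peaks in 1 region and Rrm2b 13 peaks in 2 regions. Regions are numbered along the chromosome within each window. They are named by window and were not placed on promoters, exons or introns, and a window can hold more than its gene. In the order of the RefSeq annotation of GRCm38, the next protein-coding genes are Tmem43 and Lsm3 beside Xpc, Acp2 and Pacsin3 beside Ddb2, and Ankdd1b and Cert1 beside Polk.

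Binding was mapped by chromatin immunoprecipitation of p53 and sequencing in B cell lymphomas of Eμ-myc mice on a C57/Bl6 background, in which the transgene drives the Myc oncogene in B cells. Tumours 1 to 4 had the genotype Trp53(KI/delta), with KI not spelled out further, and received 100 nM OHT (4-hydroxytamoxifen) or its solvent EtOH for 2 h, which gave 4 OHT and 4 EtOH lists. Tumours 5 to 7 were Arf-/- Trp53+/+, without the Mdm2 inhibitor Arf but with both p53 alleles. Each of the 3 gave a list after 3 h with 1 µM doxorubicin, 5 µM (-)-Nutlin, 5 µM (+)-Nutlin, DMSO or water, and a list from untreated cells. Lymph node cells were not purified further, so other cells of the node can be present, and as the lists hold p53 peaks alone the cell type was not checked against markers. In bulk chromatin, fewer cells with p53 at a site and less p53 per cell cannot be told apart. OHT was given to KI tumours for 2 h and the other agents to Arf-/- tumours for 3 h, so genotype, time and agent change together between the sets.

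These genes stand at successive steps of the response to damaged DNA. Xpc and Ddb2 recognise lesions in nucleotide excision repair, Ddb2 as a partner of Ddb1 that finds ultraviolet damage in chromatin and Xpc as the factor that opens repair at distorted helices. Polk encodes DNA polymerase kappa, which copies past damaged bases, and Rrm2b encodes the small subunit of ribonucleotide reductase that p53 induces, which makes DNA precursors outside S phase. All have been described as p53 targets in human or mouse cells, and for Ddb2 activation by p53 was reported in human cells but not in mouse cells.

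Of the 4 members, 1 had entries in the RefSeq promoter table, Polk, and its 2 annotated promoters are shown because the Polk window held a single recurrent p53 region. Each is 300 bases, from 250 before to 50 after a transcription start, on the minus strand of GRCm38.p6. Capitals mark matches to the p53 half-site consensus of 10 bases, which reads the same on both strands.
Polk, chr13:96542530-96542829: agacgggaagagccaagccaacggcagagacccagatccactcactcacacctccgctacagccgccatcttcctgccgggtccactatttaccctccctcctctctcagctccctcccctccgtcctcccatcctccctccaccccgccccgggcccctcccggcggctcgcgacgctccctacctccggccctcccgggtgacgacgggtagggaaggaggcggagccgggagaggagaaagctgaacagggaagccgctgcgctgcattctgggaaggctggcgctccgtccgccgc
Polk, chr13:96519138-96519437: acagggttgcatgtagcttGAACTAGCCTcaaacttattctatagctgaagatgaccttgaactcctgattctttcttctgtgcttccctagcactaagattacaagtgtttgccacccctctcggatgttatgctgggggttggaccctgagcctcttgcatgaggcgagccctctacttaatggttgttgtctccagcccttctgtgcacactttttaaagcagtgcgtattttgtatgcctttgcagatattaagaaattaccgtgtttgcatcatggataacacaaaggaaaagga
One promoter holds 1 half-site and the other 0, and neither holds a full site, a pair of half-sites with a spacer of 0 to 13 bases. Over all 32851 promoters of that length, 8.36% held at least 1 half-site and 0.0731% a full site. The peaks are in mm9 and were not placed on these sequences, so whether the Polk region lies on either promoter is not given here. Xpc, Ddb2 and Rrm2b had no entry.

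The lists differ in length and in kind, and both touch every value that follows. Read depth is unknown. The 12 narrow lists had median peak widths of 68 to 111 bp and the 14 wide lists 417 to 552 bp. All OHT, doxorubicin and (-)-Nutlin lists were wide and long, with 3597 to 11346 peaks. All EtOH lists, and the (+)-Nutlin, DMSO, water and untreated lists of tumours 6 and 7, were narrow, with 116 to 2180 peaks. The (+)-Nutlin, DMSO, water and untreated lists of tumour 5 were wide, with 1694 to 2696 peaks. The part of list kind in the results was not tested, except where values within tumour 5 are given. For list length, the values with lists shortened to their widest peaks are given with the other alternatives and, at 2 genes, beside the Nutlin results. The limit is the length of the shortest list in the first group named in a comparison. Where OHT, doxorubicin or (-)-Nutlin lists were compared with the others, the others were already shorter than that limit and stayed uncut. Their difference in length remained, and its part in the results was not tested.

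The OHT, doxorubicin and (-)-Nutlin lists are called activated below. The 10 OHT, doxorubicin and (-)-Nutlin lists each held peaks in 2 to 4 of the windows, and 58 of the 71 peaks were theirs. That share, 81.7%, was near the 81.1% of all peaks of the series that these lists held. The 16 other lists held 13 peaks, of which 12 lay in the Xpc or Rrm2b windows and 1 in the Polk window, and 10 of these lists had no peak in any window. The numbers of windows with a peak were 2, 3, 4 and 4 in OHT tumours 1 to 4, and 0 in each EtOH list. They were 4, 3 and 4 in doxorubicin tumours 5 to 7 and 4 in each (-)-Nutlin list. Against this, 2, 0 and 0 windows had a peak in (+)-Nutlin tumours 5 to 7, 1, 0 and 0 with DMSO, 1, 2 and 0 with water, and 1, 1 and 0 without treatment. Tumour 7 had no peak at any of the genes without doxorubicin or (-)-Nutlin. As background, 10.2% to 21.7% of the 26404 tiles of 100 kb along the genome held a peak in OHT lists, 15.9% to 25.4% in doxorubicin and (-)-Nutlin lists, 0.273% to 2.2% in EtOH lists and 1.63% to 8.73% in the other Arf-/- lists.

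**Figure D1:**
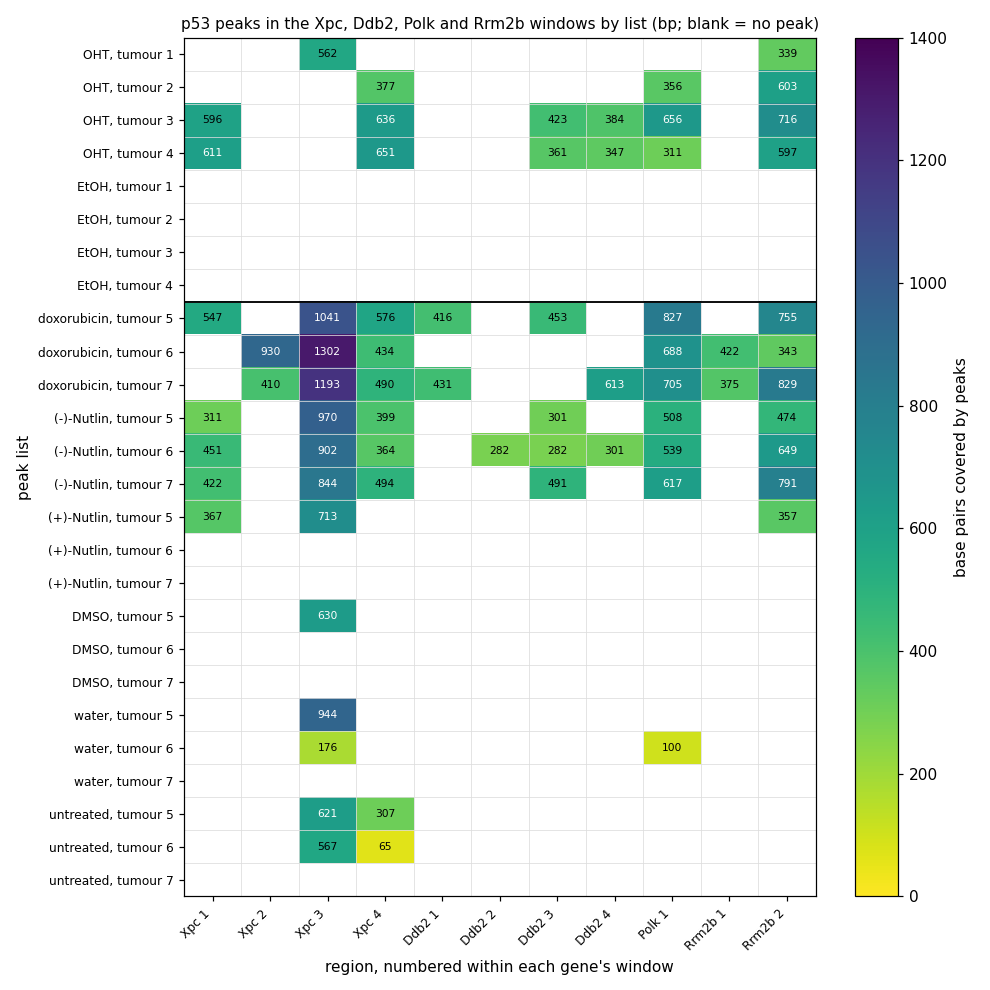
Base pairs covered by p53 peaks (colour and number) in each of the 11 regions (columns) for each of the 26 lists (rows, KI tumours above the line); blank cells have no peak. Rrm2b region 2 is filled in the 10 activated lists, Xpc region 3 is filled in 6 other lists, and the EtOH rows are empty.

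Xpc had the most peaks, in 3 neighbouring regions and a distant one. Region 3, at chr6:91426089-91427486, was called in 13 lists, more than any other member. Its peaks were 1041, 1302 and 1193 bp wide in doxorubicin tumours 5, 6 and 7 and 970, 902 and 844 bp in (-)-Nutlin tumours 5, 6 and 7. In tumour 5 they were 713 bp with (+)-Nutlin, 630 bp with DMSO, 944 bp with water and 621 bp untreated. In tumour 6 the region held 1 peak of 176 bp with water and 3 short peaks of 205, 290 and 72 bp untreated, and it had none in the (+)-Nutlin or DMSO lists. All 6 doxorubicin and (-)-Nutlin peaks were wider than every peak of the other Arf-/- lists except the 944 bp peak of water tumour 5, which exceeded the (-)-Nutlin peaks of tumours 6 and 7. The water and untreated lists of tumour 6 were narrow, with median widths of 101 and 96 bp, so their short peaks go with the kind of list. Region 3 was thus called in tumours 5 and 6 without activation, and Fisher's exact test for 6 of 6 against 6 of 12 lists gave an adjusted p of 0.106 (Benjamini-Hochberg over 17143 regions).

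In the KI tumours, Xpc region 3 was called in OHT tumour 1 alone, with a width of 562 bp. OHT tumours 3 and 4, whose lists held 10084 and 9738 peaks, had peaks of 596 and 611 bp in region 1, at chr6:91423221-91423992. Of the 3206 regions called in all 6 doxorubicin and (-)-Nutlin lists, 34.0% were in all 4 OHT lists, 10.9% in 1 and 9.64% in 0, and region 3 is among the 659 in 1 or 0. The lists of OHT tumours 3 and 4 held 77.5% and 65.0% of the 3206. Fisher's exact test of OHT lists (1 of 4) against doxorubicin and (-)-Nutlin lists (6 of 6) gave p = 0.0333 and an adjusted p of 0.890, in a comparison added after the values were seen. In it 0 of 18843 regions passed in either direction and 943 had an unadjusted p under 0.05.

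Regions 1 and 2 of Xpc divided doxorubicin from (-)-Nutlin lists of tumours 6 and 7. Region 1 was called in all 3 (-)-Nutlin lists, with peaks of 311, 451 and 422 bp in tumours 5, 6 and 7, and in doxorubicin tumour 5 with 547 bp. It was also called with (+)-Nutlin in tumour 5, at 367 bp. Doxorubicin tumours 6 and 7 had no peak there but had peaks of 930 and 410 bp in region 2, at chr6:91424876-91425805, which no other list held. With 1 of 3 doxorubicin against 3 of 3 (-)-Nutlin lists in region 1, and 2 of 3 against 0 of 3 in region 2, Fisher's exact test gave p = 0.4 for each. For 3 against 3 lists the smallest possible value is 0.1, so neither difference could be told from the spread between lists. Of the 18927 regions, 781 or 4.13% were held by 2 doxorubicin lists and no other, and so were 3 of the 11 members.

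**Figure D2:**
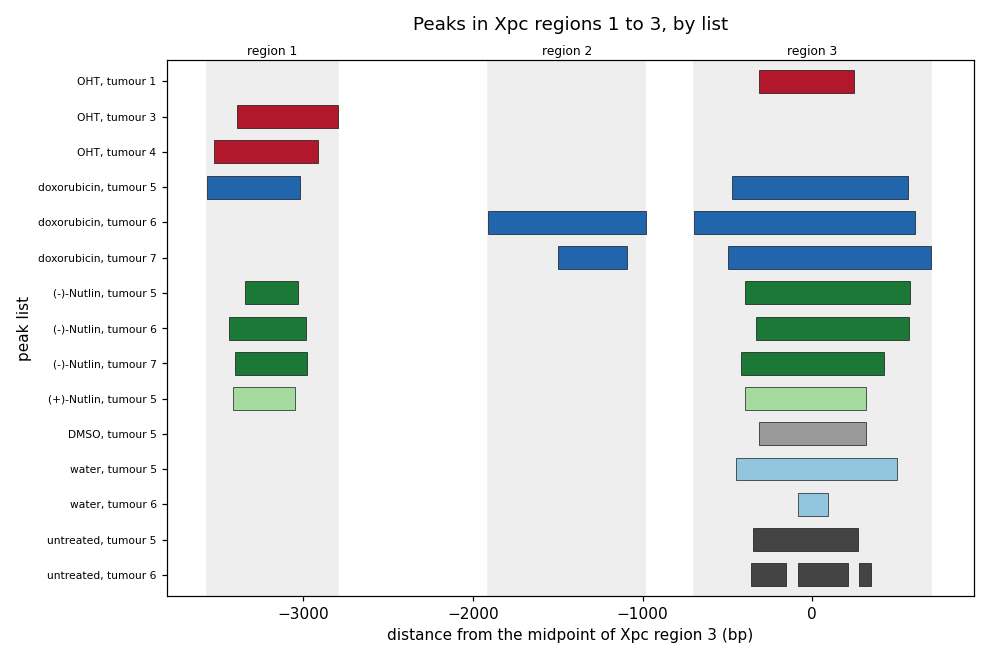
Peaks of Xpc regions 1 to 3 as bars, by distance in bp from the midpoint of region 3 (x axis), with 1 row per list that has a peak there; grey bands are the merged regions. All doxorubicin and (-)-Nutlin lists have a bar in region 3, OHT tumours 3 and 4 have theirs in region 1, and region 2 holds the bars of doxorubicin tumours 6 and 7.

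Xpc region 4, at chr6:91465572-91466314 and 39156 bp from region 3 between midpoints, was called in 11 lists. It was in 9 of the 10 activated lists and 2 of the 16 others. This split is near that of all peaks of the series, of which activated lists held 81.1%. OHT tumours 2, 3 and 4 had peaks of 377, 636 and 651 bp, while OHT tumour 1 and all EtOH tumours had none. Peaks were 576, 434 and 490 bp wide in doxorubicin tumours 5, 6 and 7 and 399, 364 and 494 bp in (-)-Nutlin tumours 5, 6 and 7. The 2 other peaks came from untreated cells, with 307 bp in tumour 5 and 65 bp in tumour 6. For 6 of 6 against 2 of 12 Arf-/- lists, Fisher's exact test gave an adjusted p of 0.00875 over all regions. Of all 17143 regions, 34.6% passed this test. It treats lists of 1 tumour as independent, and its calls without each tumour are given further on.

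Ddb2 had no peak in any of the 16 unactivated lists. Of the 18927 regions of the series, 4292 or 22.7% were in any of these lists, so such absence was common. Region 3 of Ddb2, at chr2:91042667-91043230, was called in 6 lists. Its peaks were 423 and 361 bp wide in OHT tumours 3 and 4, 453 bp in doxorubicin tumour 5, and 301, 282 and 491 bp in (-)-Nutlin tumours 5, 6 and 7. All (-)-Nutlin lists but only 1 of 3 doxorubicin lists held it, a difference with p = 0.4 by Fisher's exact test. Region 4, at chr2:91076787-91077458, had peaks of 384 and 347 bp in OHT tumours 3 and 4, 613 bp in doxorubicin tumour 7 and 301 bp in (-)-Nutlin tumour 6. Doxorubicin tumour 6 had no Ddb2 peak at all, nor had OHT tumours 1 and 2.

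Regions 1 and 2 of Ddb2 lie near the edge of the window and rest on few peaks. Region 1, at chr2:91022682-91023504, joins peaks of 416 bp in doxorubicin tumour 5 and 431 bp in doxorubicin tumour 7 that share only 24 bp. Region 2, at chr2:91023967-91024248, was the 282 bp peak of (-)-Nutlin tumour 6. All Ddb2 peaks but that of region 4 in doxorubicin tumour 7 were narrower than the median of their lists. In region 3 the widths stood between the 2.36 and 39.9 percentile of all peaks of the same list, with a median of 27.3 over 6 peaks. Doxorubicin and (-)-Nutlin lists held region 3 in 4 of 6 cases and the other Arf-/- lists in 0 of 12, with an adjusted p of 0.0166 by Fisher's exact test. The same test was passed by 34.6% of all regions.

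Polk had 1 region, at chr13:97312044-97312980, and 9 of its 10 peaks were in activated lists. OHT tumours 2, 3 and 4 had peaks of 356, 656 and 311 bp there, OHT tumour 1 had none, and no EtOH list had one. The peaks were 827, 688 and 705 bp wide in doxorubicin tumours 5, 6 and 7 and 508, 539 and 617 bp in (-)-Nutlin tumours 5, 6 and 7. Every doxorubicin peak was wider than every (-)-Nutlin peak, but the median of all peaks was also wider in the doxorubicin list of each tumour. Ranked within their own lists the Polk peaks overlapped. They stood at the 86.6, 69.2 and 73.6 percentile in doxorubicin tumours 5, 6 and 7. In (-)-Nutlin tumours 5, 6 and 7 they stood at 66.0, 75.9 and 70.3. The 1 remaining peak, of 100 bp, came from water-treated tumour 6. Calls in at least 9 activated lists with at most 1 elsewhere were shared by 827 of the 18927 regions, or 4.37%. Tumour 5, whose unactivated lists were wide, had no Polk peak in any of them. Fisher's exact test for 6 of 6 against 1 of 12 lists gave an adjusted p of 0.00453, in a test that 34.6% of all regions passed. All 10 peaks of the region shared the 47 bp at chr13:97312406-97312452.

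Rrm2b region 2, at chr15:37890361-37891245, was the member with the steadiest call after activation. It was present in all 4 OHT lists, with widths of 339, 603, 716 and 597 bp in tumours 1, 2, 3 and 4, and in 0 EtOH lists. Widths were 755, 343 and 829 bp in doxorubicin tumours 5, 6 and 7 and 474, 649 and 791 bp in (-)-Nutlin tumours 5, 6 and 7. Among the 16 other lists, (+)-Nutlin tumour 5 alone had a peak, of 357 bp. Calls in each of the 10 activated lists with at most 1 elsewhere were shared by 293 of the 18927 regions, or 1.55%. The 11 peaks had 320 bp in common, at chr15:37890750-37891069. Fisher's exact test for 6 of 6 against 1 of 12 Arf-/- lists gave an adjusted p of 0.00453, in a test that 34.6% of all regions passed. Region 1, at chr15:37884408-37884866 and 6166 bp away between midpoints, held peaks of 422 and 375 bp in doxorubicin tumours 6 and 7 and no other.

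**Figure D3:**
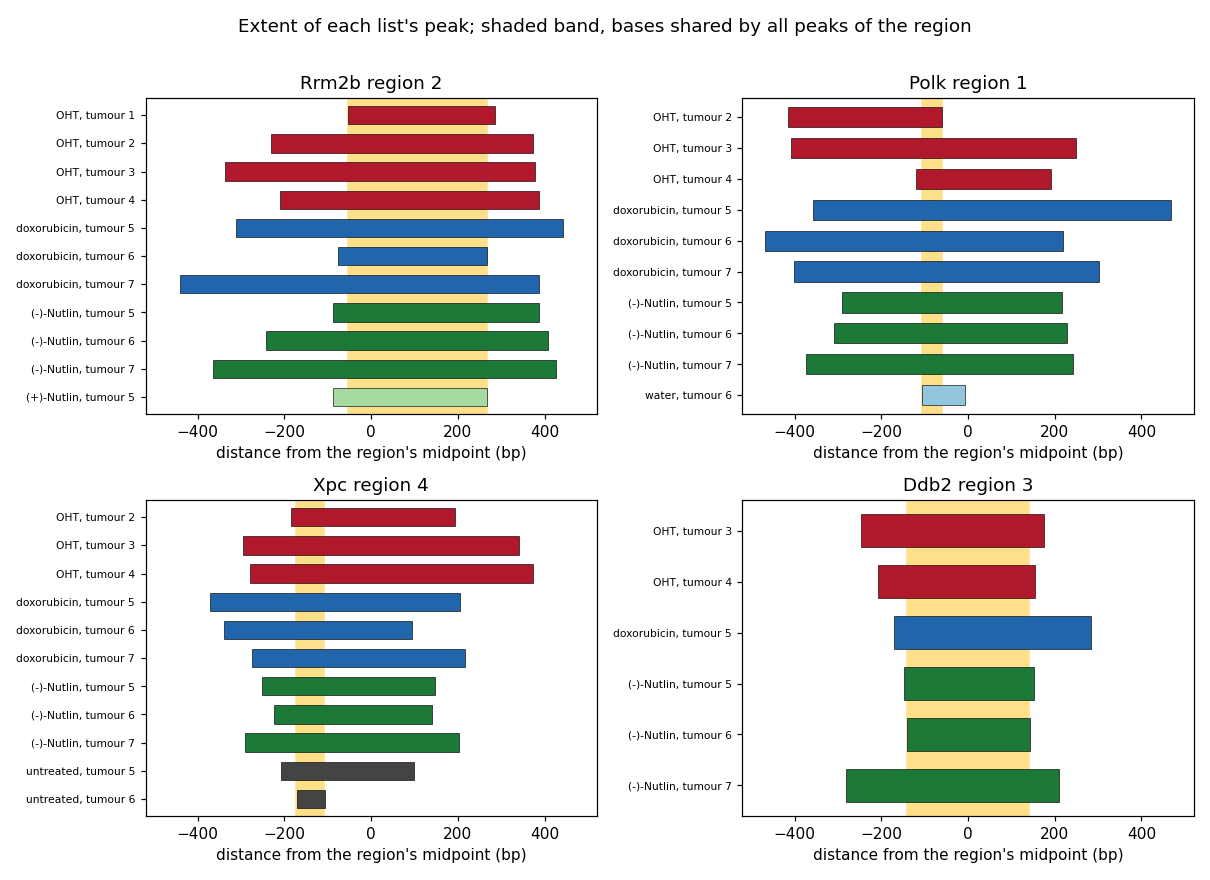
Extent of each list's peak in Rrm2b region 2, Polk region 1, Xpc region 4 and Ddb2 region 3, as distance in bp from the midpoint of the region; 1 bar per list, and the shaded band marks bases shared by all its peaks (320, 47, 65 and 282 bp). Regions join overlapping peaks, so bars overlap by construction, and the panels differ in how wide the shared band is.

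OHT against EtOH, the comparison in the KI tumours, added 1 of the 7 member regions called in these 8 lists under the strict rule of a peak in every OHT list and in no EtOH list. This was Rrm2b region 2, with an exact Fisher p of 0.0286, the smallest possible, and an adjusted p of 0.307. Over all 12799 regions the share was 9.31%. In covered length per window, Rrm2b had 564 ± 160 bp in OHT lists and 0 bp in every EtOH list (SD, n = 4 each). Xpc had 858 ± 455 bp in OHT lists and 0 bp in every EtOH list (SD, n = 4 each). Both differences had an exact permutation p of 0.0286, and with tumours paired 0.125, each the smallest possible. Ddb2 had 379 ± 439 bp and Polk 331 ± 268 bp in OHT lists, against 0 bp in EtOH lists (SD, n = 4 each), with exact permutation p of 0.429 and 0.143. With lists shortened to their widest peaks, Ddb2 had 0 bp in every OHT list too. OHT tumours 1 and 2, whose lists were the shortest of the 4, had no Ddb2 peak, and tumour 1 no Polk peak. By window, 2 of 4 genes, Xpc and Rrm2b, had peaks in each OHT list and in no EtOH list, against 4.53% of 100 kb tiles.

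Doxorubicin against water, the DNA damage comparison, added Xpc region 4 and Rrm2b region 2 among 10 member regions, against a share of 18.1% of 15038 regions. Polk and Xpc region 3 missed this rule because water lists already had peaks there. Covered length in the Xpc window was 2164, 2666 and 2093 bp in doxorubicin tumours 5, 6 and 7 and 944, 176 and 0 bp in water tumours 5, 6 and 7. In the Polk window it was 740 ± 75.8 bp with doxorubicin and 33.3 ± 57.7 bp with water (SD, n = 3 each). In the Rrm2b window it was 908 ± 256 bp with doxorubicin and 0 bp in every water list (SD, n = 3 each). Doxorubicin lists held 8250 to 11346 peaks and water lists 858 to 2206. For these 3 windows doxorubicin and water lists did not overlap, but the share of regions or tiles with such a separation was not computed. The separation is therefore not read as particular to these genes. Each exact permutation p was 0.1, and with tumours paired 0.25, each the lowest value open to 3 against 3. Ddb2 had 869, 0 and 1044 bp in doxorubicin tumours 5, 6 and 7 and 0 bp in every water list, with an exact permutation p of 0.4, and 0.5 with tumours paired. By window, 1 of 4 genes, Rrm2b, had a peak in every doxorubicin and no water list, against 8.71% of tiles. Within tumour 5, where both lists were wide, the 4 windows had 2164, 869, 827 and 755 bp with doxorubicin and 944, 0, 0 and 0 bp with water, in the order Xpc, Ddb2, Polk, Rrm2b.

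**Figure D4:**
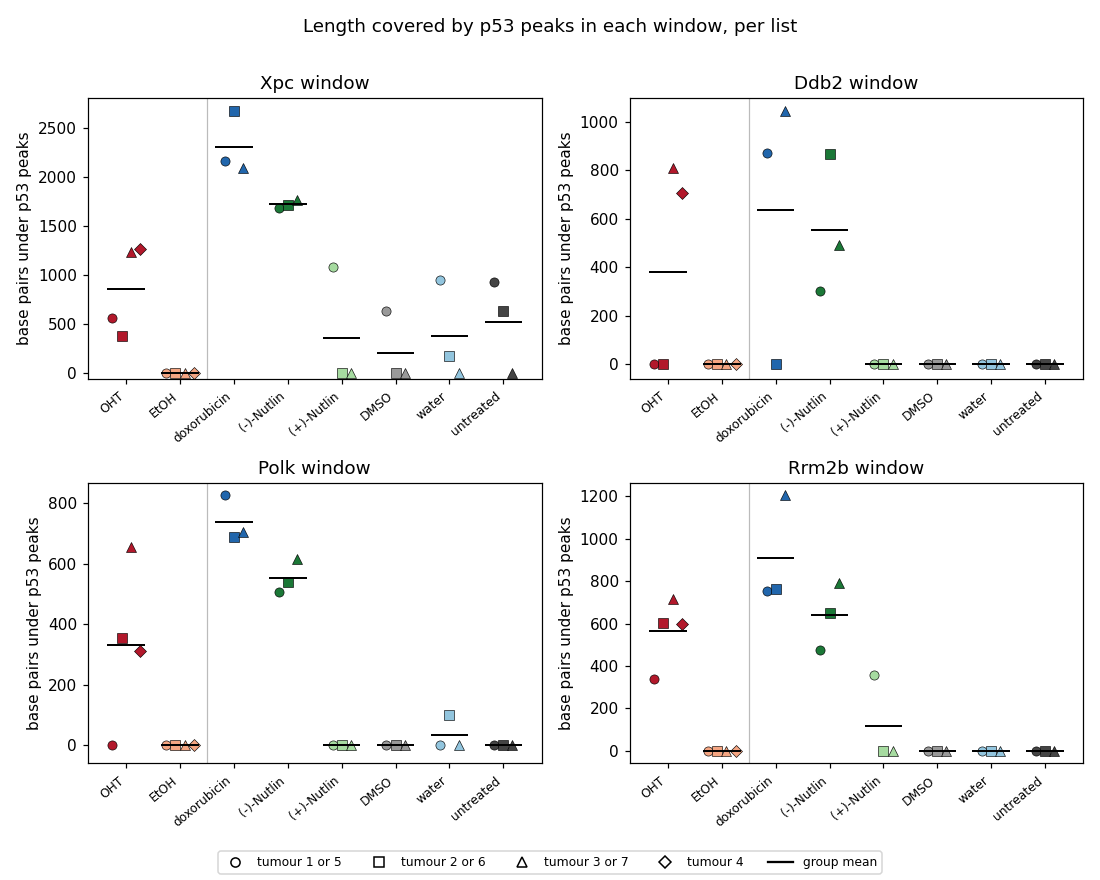
Base pairs under p53 peaks in each gene's window (y axis, linear, 1 panel per gene) for every list, by group; symbols mark tumours and the black line the group mean. The doxorubicin and (-)-Nutlin points of Polk and Rrm2b, at 474 to 1204 bp, lie above all points of the (+)-Nutlin, DMSO, water and untreated lists, while Ddb2 has points at 0 bp in OHT tumours 1 and 2 and doxorubicin tumour 6.

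The Nutlins are mirror-image forms of 1 molecule, given here at the same dose and time, and the (-) form is the one that keeps Mdm2 from binding p53. Covered length was higher with (-)-Nutlin than with (+)-Nutlin at each gene in each tumour. (-)-Nutlin covered 1680, 1717 and 1760 bp of the Xpc window in tumours 5, 6 and 7, and (+)-Nutlin 1080, 0 and 0 bp. For Polk and Ddb2, (-)-Nutlin covered 555 ± 56.2 and 552 ± 287 bp, and (+)-Nutlin 0 bp in every list (SD, n = 3 each). For Rrm2b the values were 474, 649 and 791 bp with (-)-Nutlin and 357, 0 and 0 bp with (+)-Nutlin in tumours 5, 6 and 7. The (-)-Nutlin lists held 5617 to 10674 peaks and the (+)-Nutlin lists 707 to 2351. Lists of both forms did not overlap in any window, but the share of regions or tiles with such a separation was not computed. The separation is therefore not read as particular to these genes. Each exact permutation p was 0.1, and with tumours paired 0.25, each the smallest possible. With lists shortened to their widest peaks this separation ended at Ddb2, where the mean difference became 164 bp (exact permutation p = 1), and at Xpc, where it became 1001 bp (exact permutation p = 0.2). The mean difference in the full lists was 1359 bp at Xpc, with a paired 95% interval from -275 to 2993 bp, and 519 bp at Rrm2b, with an interval from -364 to 1402 bp. At Ddb2 it was 552 bp, from -161 to 1265 bp, and at Polk 555 bp, from 415 to 694 bp. Xpc region 4, Ddb2 region 3 and Polk region 1 were in every (-)-Nutlin and no (+)-Nutlin list, which is 3 of 8 member regions against 23.6% of 12660 regions. The reverse held for 0 of 8 member regions and 0.0079% of all. By window, 2 of 4 genes, Ddb2 and Polk, met the rule, against 7.51% of tiles.

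Against DMSO, (-)-Nutlin added 5 of 8 member regions, where 27.9% of 12661 regions were added. They were Xpc regions 1 and 4, Ddb2 region 3, Polk region 1 and Rrm2b region 2, each with an exact Fisher p of 0.1, the smallest possible, and an adjusted p of 0.358. The reverse held for 0 of 8 member regions and 0.0079% of all. By window, 3 of 4 genes met the rule, Ddb2, Polk and Rrm2b, against 9.2% of tiles. All exact permutation p-values for covered length were 0.1, and 0.25 with tumours paired, each the smallest possible. The share of regions or tiles that would reach these values was not computed, and DMSO lists held only 892 to 1694 peaks. With lists shortened to their widest peaks, though, the Ddb2 difference became 164 bp (exact permutation p = 1). Ddb2, Polk and Rrm2b had 0 bp in every DMSO list, and Xpc had 630, 0 and 0 bp in DMSO tumours 5, 6 and 7. In tumour 5 the Xpc, Ddb2, Polk and Rrm2b windows had 1680, 301, 508 and 474 bp with (-)-Nutlin and 630, 0, 0 and 0 bp with DMSO.

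No difference between (+)-Nutlin and DMSO was detected at these genes, at the resolution of 3 lists each. Both had 0 bp in the Ddb2 and Polk windows of every tumour and in all windows of tumours 6 and 7. In tumour 5, (+)-Nutlin exceeded DMSO by 450 bp at Xpc and 357 bp at Rrm2b. The mean difference was 150 bp at Xpc, with a paired 95% interval from -495 to 795 bp, and 119 bp at Rrm2b, with an interval from -393 to 631 bp, on the assumption of normal differences. The exact permutation p was 1 for both. The rule of every (+)-Nutlin and no DMSO list took 0 of 3 member regions and 0.0345% of 2901 regions, and 0 regions had an unadjusted Fisher p under 0.05, which 3 against 3 lists cannot give.

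Doxorubicin and (-)-Nutlin were compared directly in the same 3 tumours. Covered length was higher with doxorubicin than with (-)-Nutlin in every tumour at Xpc, by 589 bp on average with a paired 95% interval from -209 to 1386 bp, and at Polk, by 185 bp with an interval from -112 to 483 bp. The exact permutation p was 0.1 for each, the smallest possible. It was also higher in every tumour at Rrm2b, with 755, 765 and 1204 bp under doxorubicin and 474, 649 and 791 bp under (-)-Nutlin in tumours 5, 6 and 7. There the mean difference was 270 bp, with a paired 95% interval from -99.7 to 640 bp (exact permutation p = 0.3). With tumours paired, the exact p was 0.25 at Xpc, Polk and Rrm2b, the smallest possible. Ddb2 averaged 638 bp with doxorubicin and 552 bp with (-)-Nutlin (exact permutation p = 0.8). Where both lists of a tumour held a region, the doxorubicin peak was the wider in 12 of 14 cases, the exceptions being Rrm2b region 2 in tumour 6 (343 bp with doxorubicin, 649 bp with (-)-Nutlin) and Xpc region 4 in tumour 7 (490 bp with doxorubicin, 494 bp with (-)-Nutlin). The median of all peaks was likewise wider in doxorubicin lists, at 498, 517 and 552 bp in tumours 5, 6 and 7, than in (-)-Nutlin lists, at 432, 417 and 525 bp. The share of all regions with a wider doxorubicin peak was not computed. The widest peak of each window was also ranked by width within its list, with 0 for no peak. Doxorubicin minus (-)-Nutlin was then 0.494 percentile points at Xpc, 5.76 at Polk, -11.3 at Rrm2b and 13.9 at Ddb2. The exact permutation p was 0.5 or higher for each. No member region was in every list of one agent and in no list of the other, as were 2.61% of 17070 regions for doxorubicin and 0.211% for (-)-Nutlin. By window, 0 of 4 genes met this rule for doxorubicin, against 0.879% of tiles. Ddb2 region 3 and Xpc region 1 came nearest in the direction of (-)-Nutlin, each in 3 of 3 (-)-Nutlin and 1 of 3 doxorubicin lists.

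Joining the 6 doxorubicin and (-)-Nutlin lists against the 12 other Arf-/- lists allowed a test per region. Xpc region 4, Ddb2 region 3, Polk region 1 and Rrm2b region 2 were called more often in the joined lists, 4 of 11 members or 36.4%, against 34.6% of all 17143 regions, so the share of members lay near the background. No member was called less often, against 0.0175% of all regions. Xpc region 1, with 4 of 6 against 1 of 12 lists, had an adjusted p of 0.0512, and 0.0493 when labels were permuted within tumours, which made 5 members and 7725 of all regions. The 4 called regions kept adjusted p-values of 0.00958 to 0.0232 in that exact test within tumours. Their call did not survive the loss of a tumour in full, since 1, 1 and 0 member regions passed without tumours 5, 6 and 7. Over all regions 1720, 2011 and 1294 passed then, in place of 5932.

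Covered length was also compared between the joined groups, whose lists held 5617 to 11346 peaks against 707 to 2696 in the other Arf-/- lists. The share of regions or tiles whose values do not overlap between these groups was not computed. A lack of overlap is therefore not read as particular to these genes. Xpc had 1680 to 2666 bp in doxorubicin and (-)-Nutlin lists, with a median of 1927 bp, and 0 to 1080 bp in the other Arf-/- lists, with a median of 88 bp. Polk had 508 to 827 bp in doxorubicin and (-)-Nutlin lists and 0 to 100 bp in the others, and Rrm2b 474 to 1204 bp in doxorubicin and (-)-Nutlin lists and 0 to 357 bp in the others. The exact permutation p for each was 5.39e-05, the smallest possible, and 0.000296 within tumours. Ddb2 had 0 to 1044 bp in doxorubicin and (-)-Nutlin lists and 0 bp in all 12 others, with exact permutation p of 0.0007 and 0.00148 within tumours. The groups overlapped at Ddb2 only through doxorubicin tumour 6. Of all 17143 regions, 99.5% covered more bp per list in the doxorubicin and (-)-Nutlin lists, so the direction at these genes is that of nearly all regions. Altogether 28 such tests of covered length were made, 7 for each window, and their p-values are not adjusted.

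Ranked by width within their own lists, the regions with at least 4 activated peaks differed. Xpc region 3 had the widest peaks, between the 71.7 and 96.1 percentile in OHT, doxorubicin and (-)-Nutlin lists with a median of 93.8 over 7 peaks. Rrm2b region 2 followed with a median of 81.6 over 10 peaks, Polk region 1 with 70.3 over 9, Xpc region 1 with 59.2 over 6 and Xpc region 4 with 40.8 over 9. Ddb2 regions 3 and 4 were lowest, with 27.3 over 6 and 18.5 over 4. Ranges of neighbouring regions overlapped, since Rrm2b region 2 ran from the 11.2 to the 87.4 percentile and Polk region 1 from the 4.80 to the 86.6. Within Rrm2b region 2 the low values were OHT tumour 1 and doxorubicin tumour 6, at the 11.2 and 13.7 percentile, and the other 8 peaks stood at 59.7 or higher. Before activation Xpc region 3 was already wide for its list, at the 77.6, 67.2, 87.0 and 76.5 percentile in (+)-Nutlin, DMSO, water and untreated tumour 5. In the narrow lists of tumour 6, its peak with water stood at the 69.1 percentile. The peaks of 205, 290 and 72 bp in untreated tumour 6 stood at 74.8, 81.6 and 32.3. The lists give no height, so width is the only measure of peak size here.

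**Figure D5:**
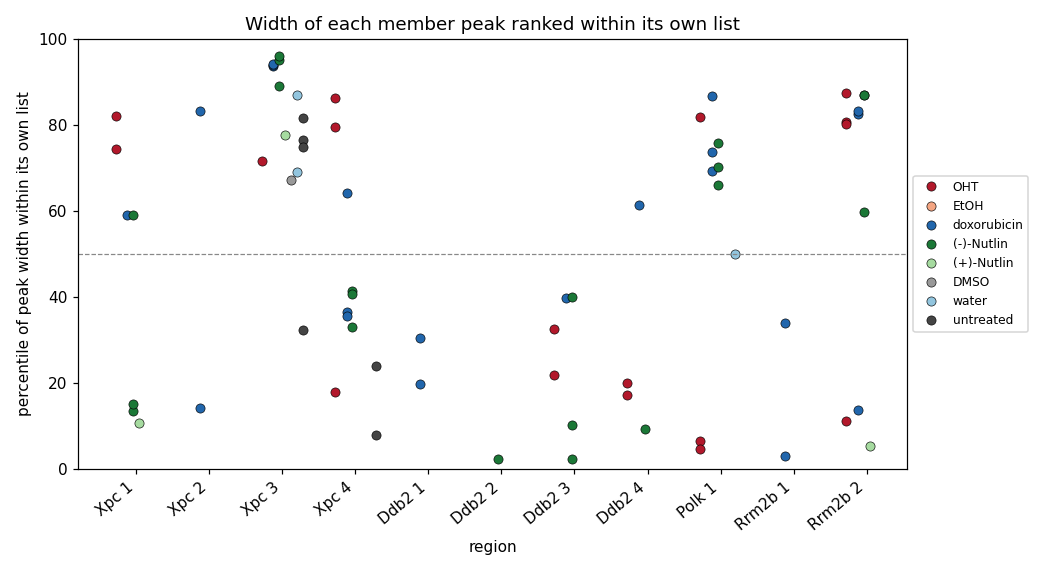
Percentile of each peak's width within its own list (y axis; the dashed line is the list's median) for the 11 regions (x axis), coloured by group. Points of Xpc region 3 from doxorubicin and (-)-Nutlin lists lie at 89.1 to 96.1, and all points of Ddb2 region 3 lie below the dashed line; EtOH lists have no point.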

How the data were processed

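Peaks were taken from 26 deposited lists, 1 per p53 immunoprecipitate, with chromosome, start and end and no score. BWA 0.6.2, SAMtools and mm9 are named in the submitters' processing notes. How peaks were called, and at what threshold, is not stated in those sources, and the 7 input libraries were not analysed here. Coordinates are printed counted from 1. Read depth per library is unknown, so no counting interval is given.

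Groups and tumour numbers come from the sample titles. A tumour number marks cells of the same tumour, so it pairs the lists within each set, and lists of 1 tumour are not independent. The members, windows and comparisons were chosen with earlier results of these data known, and all regions inside the 4 windows are named. Regions join peaks, among the lists compared, with 1 bp or more in common. Fisher's exact test compared presence per list, and Benjamini-Hochberg adjustment ran over all regions of the genome, at a threshold of 0.05. Covered length per window, the summed width of the peaks that overlap it, was tested by two-sided exact permutation over lists and within tumours. Tiles of 100 kb ran to the last peak of each chromosome. Promoter sequences and gene order come from RefSeq, GRCm38.p6. Code ran in Python 3.11.15 with NumPy 2.4.6, SciPy 1.17.1, pandas 2.3.3 and matplotlib 3.10.9 and was tested on simulated lists with known answers.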

Additional observations from a re-analysis of the deposited data

Results flagged for a closer look

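Covered length per window was searched for single lists that stood far from the rest of their group. There were 8 sets of values to test, the OHT lists and the joined doxorubicin and (-)-Nutlin lists at each of the 4 genes, since EtOH lists were all at 0 bp and the other groups held 3 lists. In these, 0 lists stood apart by Dixon's test at the 95% level.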

How the results depend on the processing

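Counts of member regions moved with the strictness of the rule and the length of the lists, and so did the share of all regions, given in brackets. With only peaks at least as wide as the median of all peaks, the rule of every list against none gave 0 regions for OHT against EtOH (6.39%), 1 for doxorubicin against water (14.4%) and 2 for (-)-Nutlin against DMSO (24.0%). With lists shortened to their widest peaks, at most as many as the shortest list of the first group named, it gave 0 for OHT against EtOH (7.49%), 2 for (-)-Nutlin against DMSO (23.5%) and 1 for (-)-Nutlin against (+)-Nutlin (18.4%), and Fisher's test of the joined lists gave 2 (15.8%). When 1 list of each group could differ, the counts were 3 for OHT against EtOH (29.6%), 6 for doxorubicin against water (54.5%), 6 for (-)-Nutlin against (+)-Nutlin (64.7%) and 3 for doxorubicin against (-)-Nutlin (13.8%). Leaving out each tumour in turn gave 1 to 3 for OHT against EtOH (11.9% to 18.1%), 2 to 4 for doxorubicin against water (21.9% to 43.9%), 3 to 6 for (-)-Nutlin against (+)-Nutlin (31.3% to 49.3%), 0 to 2 for doxorubicin against (-)-Nutlin (3.28% to 10.3%) and 0 to 1 for the joined lists (7.73% to 14.3%). The ends of these ranges need not come from the same tumour. For (-)-Nutlin against (+)-Nutlin, the count of 6 went with 40.1% (without tumour 5) and 49.3% went with a count of 3 (without tumour 7). With tumour as a replicate block, the joined lists gave 5 (45.1%).

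For covered length of OHT against EtOH, pairing tumours as a block leaves the mean difference as it is by arithmetic, 858 bp at Xpc and 564 bp at Rrm2b, and the exact p became 0.125. Without each tumour in turn the difference ran from 724 to 1019 bp at Xpc and from 513 to 639 bp at Rrm2b, with an exact p of 0.1. Each of these p-values is the smallest its design allows. With lists shortened to their widest peaks, OHT minus EtOH was 479 bp at Rrm2b (exact p = 0.143) and 0 bp at Ddb2 (exact p = 1). In the same lists the Ddb2 difference was 184 bp in the joined groups (exact p = 0.098) and 164 bp for (-)-Nutlin against DMSO or (+)-Nutlin (exact p = 1). (+)-Nutlin minus DMSO at Rrm2b became 0 bp there, and without each tumour it ran from 0 to 178.5 bp at Rrm2b and from 0 to 225 bp at Xpc, at 0 bp without tumour 5 for both. Doxorubicin minus (-)-Nutlin changed sign in number of peaks at Xpc (-0.333) and at Ddb2 (-0.333) and was 0 at Polk. It also changed sign in the width percentile at Rrm2b (-11.3), and at Ddb2 with windows shortened by 10 kb at each end (-103 bp). At Ddb2 it ran from -156 to 561 bp without each tumour, at -156 bp without tumour 5 and -149 bp without tumour 7. The causes were not tested, and the block changed no other call. Comparisons of 3 against 3 lists cannot pass 0.05 under any alternative.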
